A study of Homo sapiens with 9 samples.

Results

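The genes described here are the metallothioneins MT1A, MT1E, MT1F, MT1G, MT1H, MT1M, MT1X and MT2A, the transcription factor MTF1 and the zinc exporter SLC30A1. They were chosen by symbol, with earlier results of these data known, and all 10 had a row among the 16222 genes of the deposited tables. RNA sequencing measured their expression in THP-1, a line of human monocytic leukaemia cells that is labelled as wild type. Every culture was first given PMA, a phorbol ester that makes THP-1 cells adhere and take on macrophage features. The control group then received PBS, the second group LPS, a bacterial cell wall component that activates macrophages, and the third group LPS together with ABS (written LPS_ABS below). ABS is not spelled out in the labels, and the title of the series concerns apoptotic bodies made in hydrogel microspheres. Each group had 3 libraries, 9 in all. Whether these were separate cultures is not labelled, so the p-values reflect only how far samples differed, which may be technical. Dose and duration are not given in the sources used here, and 1 cell line stands for macrophages throughout.

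Metallothioneins are small proteins rich in cysteine that bind zinc and copper in the cytosol. Free zinc activates MTF1, a zinc finger protein that binds metal response elements in the promoters of the metallothionein genes and of SLC30A1, which carries zinc out of the cell through the plasma membrane. Glucocorticoids and inflammatory signals are also known inducers of metallothioneins, and macrophages are known to shift zinc and copper between compartments when they meet bacterial products.

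The coding sequences show how alike the metallothioneins are, which bears on how reads can be assigned to them. Those of MT2A and MT1X, which had the largest fold changes with LPS among the 5 well-counted metallothioneins (MT1E, MT1F, MT1G, MT1X and MT2A), are printed with those of MT1G and MT1M, the nearest to and the farthest from MT2A. They come from the GENCODE v29 transcripts and run from 5′ to 3′ without the stop codon. Capitals mark the cysteine codons TGC and TGT in frame.
MT2A: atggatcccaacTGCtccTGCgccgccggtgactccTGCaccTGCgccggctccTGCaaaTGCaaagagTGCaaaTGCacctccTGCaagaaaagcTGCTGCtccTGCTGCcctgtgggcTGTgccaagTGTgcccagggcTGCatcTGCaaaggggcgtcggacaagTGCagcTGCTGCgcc
MT1X: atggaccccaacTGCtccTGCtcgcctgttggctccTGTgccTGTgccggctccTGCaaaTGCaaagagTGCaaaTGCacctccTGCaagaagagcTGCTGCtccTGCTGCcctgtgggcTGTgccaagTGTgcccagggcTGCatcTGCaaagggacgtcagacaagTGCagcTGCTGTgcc
MT1G: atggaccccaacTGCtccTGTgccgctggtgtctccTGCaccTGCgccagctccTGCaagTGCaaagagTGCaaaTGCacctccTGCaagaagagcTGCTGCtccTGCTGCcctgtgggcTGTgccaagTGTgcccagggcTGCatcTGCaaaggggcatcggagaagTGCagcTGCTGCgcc
MT1M: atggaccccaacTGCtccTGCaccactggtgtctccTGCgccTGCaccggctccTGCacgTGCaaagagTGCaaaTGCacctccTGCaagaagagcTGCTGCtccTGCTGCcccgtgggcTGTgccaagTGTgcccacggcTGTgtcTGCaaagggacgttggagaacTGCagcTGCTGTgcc
Each of the 8 metallothioneins had 61 codons, of which 20 (32.8%) were cysteine codons. Identity to the coding sequence of MT2A lay between 89.6% (MT1M) and 95.1% (MT1G). Among all windows of 50 bases along the transcript, 19.9% of those of MT1G and 14.7% of those of MT1X also occurred in another gene of the count table. The corresponding shares were 3.59% for MT1F, 2.17% for MT2A, 0.458% for MT1E and 0% for SLC30A1. The transcripts searched had 406 bases for MT1G, 450 for MT1X, 690 for MT1F, 786 for MT2A and 704 for MT1E. Counts and FPKM implied lengths of 410, 404, 425, 401 and 398 bases in the same order. Shares of MT1X, MT1F, MT2A and MT1E are thus taken over longer sequence than was counted. MT1X shared 45.1% of its windows with some annotated gene, most often with AC026461.1. By these shares, values of MT1G and MT1X are the least certain of the well-counted metallothioneins, since counting could divide or drop such reads.

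Promoter sequence was at hand for 5 of the 10 members (MT2A, MT1X, MT1H, SLC30A1 and MTF1), from RefSeq on GRCh38.p14. The 250 bases before the start of 4 of them are printed because the metal response element is the sequence that MTF1 recognises. Capitals mark matches to its core, searched as TGCACNC or TGCGCNC on both strands, with overlapping matches counted separately. The windows were chr16:56608334-56608583 (plus strand) for MT2A, chr16:56682220-56682469 (plus strand) for MT1X, chr16:56669564-56669813 (plus strand) for MT1H and chr1:211579162-211579411 (minus strand) for SLC30A1.
MT2A: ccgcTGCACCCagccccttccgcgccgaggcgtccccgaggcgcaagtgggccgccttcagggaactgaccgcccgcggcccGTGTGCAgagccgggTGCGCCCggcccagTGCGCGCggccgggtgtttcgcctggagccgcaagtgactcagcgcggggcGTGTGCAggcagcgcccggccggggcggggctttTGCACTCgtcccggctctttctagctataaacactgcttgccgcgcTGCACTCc
MT1X: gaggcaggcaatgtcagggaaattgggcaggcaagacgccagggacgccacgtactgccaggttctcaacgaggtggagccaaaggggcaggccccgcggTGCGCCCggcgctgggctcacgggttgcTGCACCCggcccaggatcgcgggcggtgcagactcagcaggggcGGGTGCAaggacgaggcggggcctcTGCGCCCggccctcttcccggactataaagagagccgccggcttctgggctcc
MT1H: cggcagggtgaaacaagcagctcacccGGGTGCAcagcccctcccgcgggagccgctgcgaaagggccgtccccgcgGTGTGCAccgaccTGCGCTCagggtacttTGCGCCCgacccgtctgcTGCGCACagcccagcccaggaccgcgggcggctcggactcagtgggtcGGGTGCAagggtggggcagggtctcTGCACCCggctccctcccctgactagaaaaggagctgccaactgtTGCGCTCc
SLC30A1: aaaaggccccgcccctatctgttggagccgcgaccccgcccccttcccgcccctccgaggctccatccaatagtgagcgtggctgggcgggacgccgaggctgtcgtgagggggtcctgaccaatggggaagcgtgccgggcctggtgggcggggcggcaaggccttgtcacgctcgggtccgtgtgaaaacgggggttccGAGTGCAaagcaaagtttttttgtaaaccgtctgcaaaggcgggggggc
The MT2A window held 7 matches, the MT1X window 4 and the MT1H window 8. Among 35116 promoters of the same length, 0.0313% held at least as many as MT2A, 0.37% at least as many as MT1X and 0.0171% at least as many as MT1H. SLC30A1 had 1 match, where 24.8% of all promoters had at least 1, and MTF1 had 0. Over the full 300 bases at hand, which run past the start, SLC30A1 had 2 matches and MT2A 8. MT1X, MT1H and MTF1 had no more than before the start. The letters TATAAA occurred in the windows of MT2A and MT1X, in none of those of MT1H, SLC30A1 and MTF1, and in 6.8% of all windows. MT1H thus had more matches than MT2A in the 250 bases before the start, while its transcript was close to undetected in these cells (below 4 counts in every library).

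**Figure D1:**
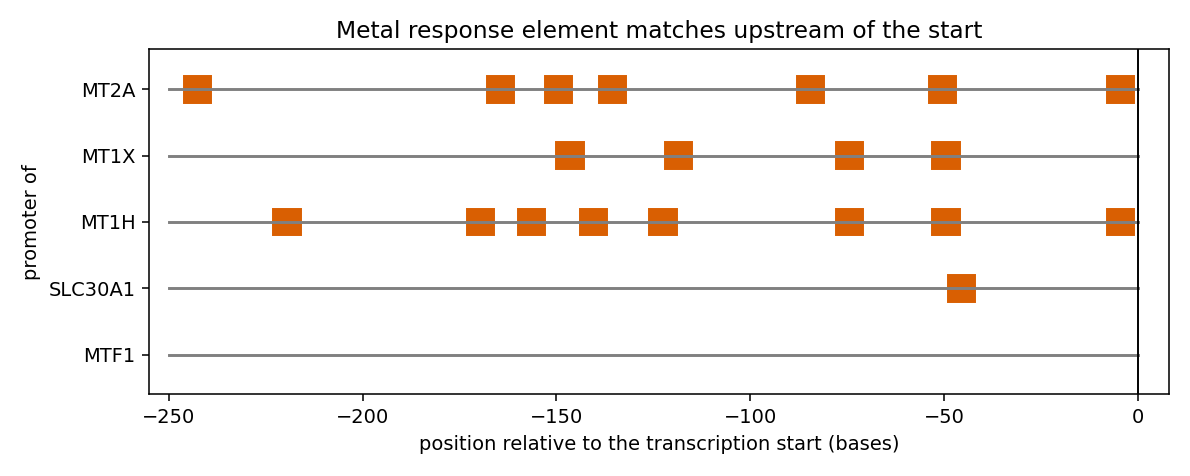
Position of matches to the metal response element core (orange) in the 250 bases before the transcription start (x axis, bases; the start is at 0) of the 5 members with a promoter sequence (y axis). MT2A has 7 matches, MT1X 4, MT1H 8, SLC30A1 1 and MTF1 0.

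Total counts per library lay between 38506162 and 41679412. All 12 monocyte and macrophage markers reached a mean of 1 CPM (counts scaled to library size after TMM), and their summed level was between 1630 and 1740 CPM in controls, 1860 and 1960 with LPS, and 1960 and 2330 with LPS_ABS. No T cell, fibroblast or chondrocyte marker with a row reached a mean of 1 CPM, whereas PECAM1 of the endothelial list and KRT8 of the epithelial list did. Only 2 of 5 T cell, 5 of 6 fibroblast and 3 of 5 chondrocyte markers had a row, and CD3D, CD3E and CD3G had none. Summed endothelial markers were 247 to 271, 329 to 359 and 237 to 325 CPM in the same order of groups. The libraries also differed in how counts depended on the GC content of the transcripts. For this, log2 CPM was taken as the deviation from each gene's mean over the 9 libraries. Per 10 percentage points of GC, these deviations changed by -0.15 ± 0.02 (SD, n = 3) in controls, -0.15 ± 0.14 with LPS and 0.30 ± 0.07 with LPS_ABS. The slopes are thus relative between groups and do not give the dependence on GC within a library. Members range from 38.0% GC (SLC30A1) to 63.0% (MT2A), so comparisons with LPS_ABS are given as counted and after a correction for this trend. GC content was taken from the longest GENCODE transcript of each gene, protein-coding where there was one. For MT2A, MT1E, MT1F, MT1X and MT1M this transcript is longer than the 401, 398, 425, 404 and 398 bases implied by counts and FPKM. How far the corrected values depend on that choice was not tested.

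Levels between genes are compared in FPKM as deposited, a unit scaled to gene length and library size. MT2A, the main human metallothionein, had the highest level of the members in all 9 libraries. It stood at 298, 280.1 and 291 FPKM in the controls, at 620.2, 718 and 799 with LPS and at 476, 362 and 238 with LPS_ABS. Every LPS library lay above every library of the other groups, and LPS_ABS 3 lay below the lowest control. In such bulk libraries, fewer cells that express a gene and less RNA per cell cannot be told apart. Ranked among all genes, MT2A had places 213 to 230 in controls, 86 to 110 after LPS, and 144 to 266 in the LPS_ABS libraries.

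MT1E came next, at 194, 208 and 225 FPKM in controls, 356, 348 and 391 with LPS, and 252, 223 and 152 with LPS_ABS. MT1X, whose protein serves the same zinc and copper buffering, stood at 84.6, 75.0 and 77.8 FPKM in controls, 191, 238 and 227 with LPS, and 139, 135 and 67.5 with LPS_ABS. For both genes the LPS libraries formed the top 3, and the LPS_ABS libraries lay on both sides of the controls. The 2 genes differed in how far LPS_ABS stayed above control, since MT1E averaged 209.3 ± 15.5 and 208.9 ± 51.1 FPKM (SD, n = 3) in those groups and MT1X 79.1 ± 4.92 and 113.7 ± 40.1.

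MT1F stood at 90.5, 80.0 and 80.0 FPKM in controls, 139, 127 and 134 with LPS, and 105, 85.7 and 68.5 with LPS_ABS. MT1G, the lowest of the well-counted metallothioneins, stood at 39.9, 30.1 and 27.6 FPKM in controls, 52.2, 61.6 and 62.1 with LPS, and 34.5, 34.4 and 22.4 with LPS_ABS. Here too each LPS library exceeded all 6 others. In controls MT1X and MT1F did not separate (75.0 to 84.6 against 80.0 to 90.5 FPKM), whereas with LPS the ranges were 190.6 to 238 and 127 to 139. The ratio of MT1X to MT1F was 0.949 ± 0.021 in controls, 1.65 ± 0.26 with LPS and 1.29 ± 0.29 with LPS_ABS (SD, n = 3).

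Summed over the 8 metallothioneins, the level was 694 ± 18.2 FPKM in controls, 1489 ± 129 with LPS and 799 ± 231 with LPS_ABS (SD, n = 3). The LPS libraries ranged from 1358 to 1615, the controls from 673 to 707.5 and the LPS_ABS libraries from 549.7 to 1007. MT2A made up 41.7 ± 0.32% of this sum in controls, 47.8 ± 1.92% with LPS and 44.5 ± 2.31% with LPS_ABS. The share of MT1E was 30.2 ± 2.39%, 24.6 ± 1.48% and 26.4 ± 1.35%. The metallothionein mixture therefore leaned more to MT2A and less to MT1E in the LPS libraries than in the controls, with no overlap between these groups for MT2A (41.5 to 42.1% against 45.7 to 49.5%).

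**Figure D2:**
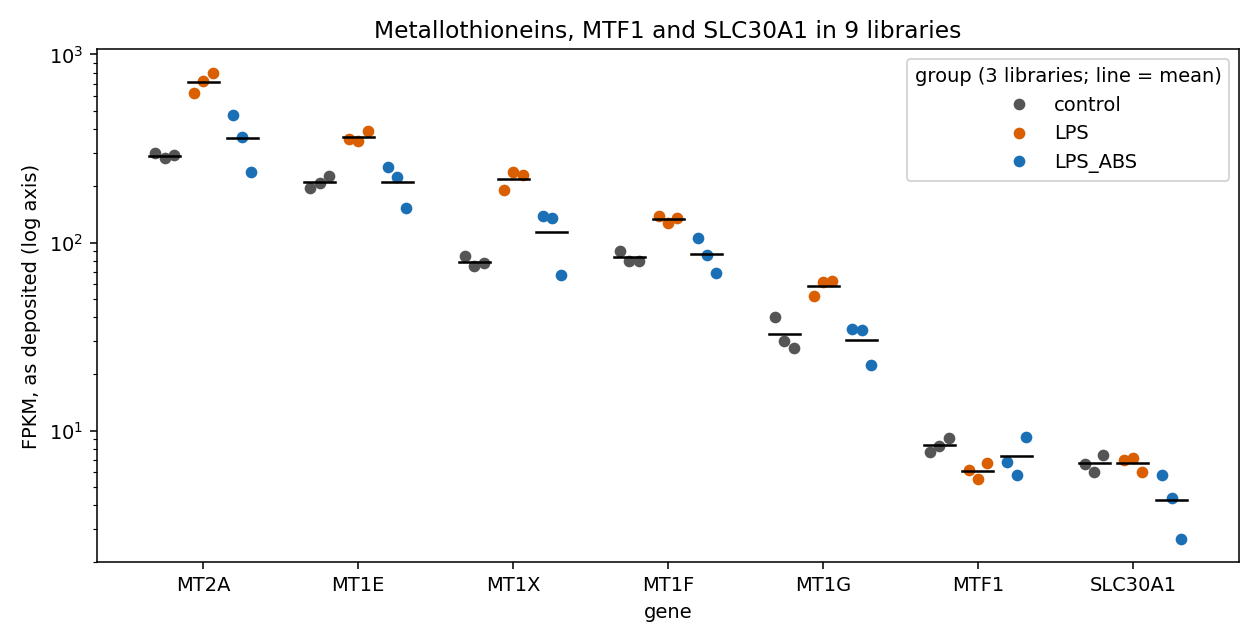
FPKM as deposited (y axis, log scale) of the 7 members with at least 100 counts in each library (x axis); each point is a library, coloured by group, and each line is the mean of 3 libraries. The LPS libraries are the highest of all for the 5 metallothioneins, MTF1 is lower with LPS than in controls, and SLC30A1 is spread widest with LPS_ABS.

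The remaining metallothioneins had few counts. MT1M had 1, 0 and 0 counts in controls, 13, 4 and 18 with LPS, and 4, 0 and 10 with LPS_ABS. Its summed counts with LPS against control (35 against 1) gave a ratio of 35.5, with an exact 95% interval from counting error alone of 5.96 to 1440. Of its windows of 50 bases, 7.05% also occurred in another annotated gene and 1.92% in another gene of the count table. Whether some of these few reads came from the other metallothioneins was not tested. MT1A had 1, 0 and 0 counts in controls, the same with LPS, and 8, 0 and 0 with LPS_ABS, so its counts with ABS came from LPS_ABS 1. MT1H had 0 counts in 8 libraries and 3 in LPS_ABS 3. A count of 0 allows a level of up to 0.069 to 0.0849 CPM, depending on the library, and covers counting error only. MT3, a metallothionein best known from the brain, was the single one of 10 further metallothionein genes with a row, and had 0 to 4 counts per library.

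MTF1 and SLC30A1, the sensor and the exporter of this system, were far lower than MT2A per length. MTF1 stood at 7.72, 8.23 and 9.14 FPKM in controls, 6.19, 5.50 and 6.70 with LPS, and 6.81, 5.84 and 9.29 with LPS_ABS. Its 3 LPS libraries lay below its 3 controls, opposite to the metallothioneins, and LPS_ABS spanned nearly the whole range. SLC30A1 stood at 6.64, 6.02 and 7.39 FPKM in controls, 7.0, 7.12 and 6.02 with LPS, and 5.78, 4.37 and 2.65 with LPS_ABS. Control and LPS libraries overlapped, and in FPKM each LPS_ABS library lay below all 6 others. MTF1 lay above SLC30A1 in every control and every LPS_ABS library, and the ranges of the 2 genes overlapped with LPS. The ratio of MT2A to SLC30A1 in FPKM was 43.6 ± 3.78 in controls, 107.5 ± 22.9 with LPS and 85.0 ± 4.28 with LPS_ABS (SD, n = 3). This ratio is not corrected for GC content, in which the 2 genes differ most among the members. Between LPS_ABS and control, the log2 fold change as counted was 0.44 for MT2A and -0.51 for SLC30A1. With the GC correction these values were 0.03 ± 0.19 and 0.13 ± 0.17 (SE), so the higher ratio with LPS_ABS than in controls did not remain.

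The first comparison asks what LPS did to these genes in PMA-treated cells, and its values are a description, because the genes were chosen with this contrast known. As fitted by edgeR, the log2 fold change of LPS against control was 1.5 ± 0.24 (SE) for MT1X and 1.33 ± 0.22 for MT2A, which are 2.82-fold and 2.51-fold higher levels. MT1G (0.88 ± 0.21), MT1E (0.83 ± 0.18) and MT1F (0.70 ± 0.16) were higher by smaller factors of 1.84, 1.78 and 1.63. The median of these 5 genes was 0.88, beside -0.03 over all 12970 genes tested. MTF1 was lower by 0.42 ± 0.17 on the log2 scale, that is, 1.34-fold lower. SLC30A1 differed by 0.03 ± 0.23, less than its standard error.

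Of the 10 members, 8 passed the filter on low counts and 6 were called higher at an adjusted p under 0.05 (MT1E, MT1F, MT1G, MT1M, MT1X and MT2A), in a comparison in which 14.9% of all genes were called and 7.71% were called higher. MT1M passed the filter through the groups in which it was higher, and MT1A and MT1H did not pass. MTF1 and SLC30A1 were not called. Without control 2, control 3 or LPS 3, the metallothioneins called were 3, namely MT1E, MT1X and MT2A. The call of MT1M was also lost without control 1 or LPS 1, and with the 2 groups alone. All 5 well-counted metallothioneins had LPS libraries above all control libraries, as had 19.9% of the genes tested, and MTF1 had them below, as had 22.7%.

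The second comparison asks what changed further with ABS, and it shares the LPS libraries with the first. MT2A was lower with LPS_ABS than with LPS by 0.88 ± 0.21 (SE) on the log2 scale, a 1.85-fold lower level. MT1G (-0.84 ± 0.21), MT1X (-0.84 ± 0.23), MT1E (-0.70 ± 0.18) and MT1F (-0.51 ± 0.16) were lower as well, 1.79-, 1.79-, 1.63- and 1.43-fold. Their median was -0.84, beside 0.02 over all genes tested. After the GC correction the same 5 genes stood at -1.34 ± 0.19 (MT2A), -1.18 ± 0.19 (MT1G), -1.10 ± 0.22 (MT1X), -0.95 ± 0.16 (MT1F) and -0.94 ± 0.17 (MT1E), with a median of -1.10.

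LPS_ABS 3 was the lowest LPS_ABS library for each of these 5 genes. Without it the difference from LPS was -0.65 for MT2A and for MT1G, -0.57 for MT1X, -0.51 for MT1E and -0.36 for MT1F. In this comparison 5 members were called lower (MT1E, MT1F, MT1G, MT1X and MT2A) and 0 higher, where 35.6% of all genes were called and 18.8% were called lower. After the GC correction the 5 were again called, where 9.19% of genes were called and 4.2% were called lower. As counted, the call of MT1F was lost without LPS 1, LPS 3, LPS_ABS 2 or LPS_ABS 3, and with the 2 groups alone. Without LPS 3 that of MT1X was lost too, which left MT1E, MT1G and MT2A. The 5 genes had every LPS_ABS library below every LPS library, as had 24.3% of the genes tested.

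SLC30A1 and MTF1 were not called in this comparison. SLC30A1 was lower with LPS_ABS by 0.54 ± 0.23 (SE) on the log2 scale as counted, within the range of the 5 metallothioneins, but its difference was 0.08 ± 0.17 after the GC correction and -0.28 without LPS_ABS 3. MTF1 was higher by 0.35 ± 0.17 as counted and by 0.43 ± 0.14 after the correction, and by 0.16 without LPS_ABS 3. In CPM the LPS_ABS and LPS libraries of both genes also overlapped (SLC30A1 16.1 to 37.2 against 35.8 to 41.3). The part of GC content in the value of SLC30A1 was not tested beyond this correction.

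**Figure D3:**
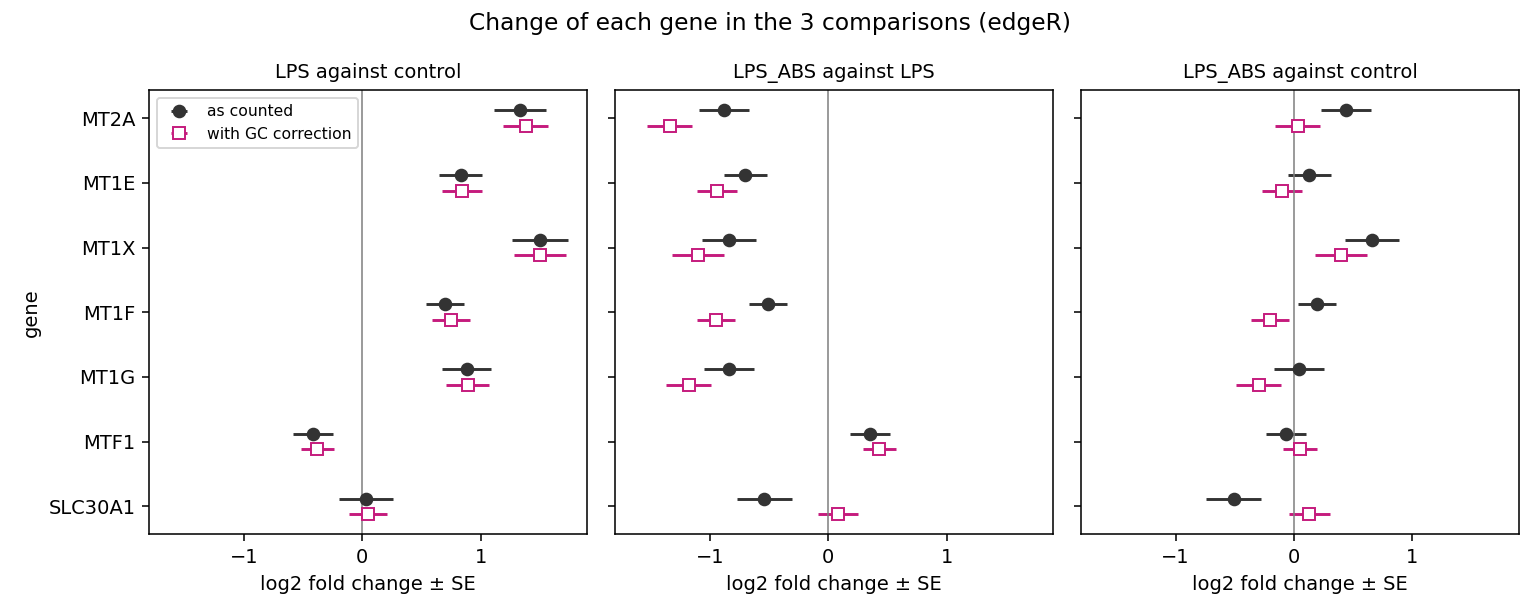
Log2 fold change ± SE from edgeR (x axis) of the 7 members with at least 100 counts in each library (y axis) in the 3 comparisons, as counted (filled circles) and with the GC correction (open squares). The 5 metallothioneins are higher with LPS and lower with LPS_ABS than with LPS under both, while SLC30A1 with LPS_ABS moves from -0.54 to 0.08.

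Set against the controls, MT1E, MT1F and MT1G had log2 fold changes with LPS_ABS of 0.13 ± 0.18, 0.19 ± 0.16 and 0.04 ± 0.21 (SE), and their libraries overlapped with the controls. MT1X was 1.58-fold higher (0.66 ± 0.23) and MT2A 1.36-fold higher (0.44 ± 0.21). The GC correction brought MT1X to 0.40 ± 0.22 and MT2A to 0.03 ± 0.19, and turned MT1E, MT1F and MT1G to -0.10, -0.20 and -0.30. Without LPS_ABS 3 the 5 values as counted were 0.93 (MT1X), 0.68 (MT2A), 0.34 (MT1F), 0.32 (MT1E) and 0.23 (MT1G). MT1X was the 1 member called, where 33.8% of all genes were called and 14.8% were called higher. This call was lost without any 1 control, LPS 3, LPS_ABS 1 or LPS_ABS 2, and with total-count scaling. After the correction 0 members were called, where 13.0% of genes were, and without LPS_ABS 3 the metallothioneins called were MT1X and MT2A. Every well-counted member had overlapping libraries in CPM.

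Across the 9 libraries, log2 CPM of MT2A went with that of MT1X (Pearson r 0.980), MT1F (0.973), MT1E (0.971) and MT1G (0.931). It went less with SLC30A1 (0.453) and in the opposite sense with MTF1 (-0.748). These are descriptions over 9 libraries that share their treatments, depths and GC trends. Among 10627 other genes, those most like MT2A included AGA (0.984), a lysosomal enzyme that cleaves sugar chains from asparagine, KCNE1B (0.979), a near copy of the channel subunit KCNE1 whose reads may be split, LRRC3B (0.979) and TMEM154 (0.973). AGA stood at 12.8, 34.7 and 17.6 CPM and TMEM154 at 32.2, 69.4 and 38.7 CPM on average in controls, LPS and LPS_ABS. The genes most like SLC30A1 were ZNF84 (0.983), OMA1 (0.980), TMTC3 (0.970), the kinase gene YES1 (0.967) and CUL4B (0.963). Their transcripts had 33.5 to 43.5% GC, beside 38.0% for SLC30A1. Those of AGA, KCNE1B, LRRC3B and TMEM154 had 41.0 to 50.8%, beside 63.0% for MT2A. The part of GC content in these likenesses was not tested.

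The metallothionein genes lie side by side on chromosome 16, in the order MT2A, MT1E, MT1M, MT1A, MT1F, MT1G, MT1H and MT1X, with MT1G on the opposite strand. Of the 5 nearest genes with a row on each side, 8 of 10 were tested. MT3, itself a metallothionein, is the nearest of these before the cluster and was not tested. With LPS, HERPUD1, which takes part in the removal of misfolded proteins from the endoplasmic reticulum, rose, and NUP93, a nuclear pore component, fell. HERPUD1 stood at 19.0, 17.3 and 17.0 FPKM in controls, 48.7, 53.1 and 51.4 with LPS, and 42.0, 55.9 and 34.8 with LPS_ABS. Its log2 fold change with LPS was 1.55 ± 0.16 (SE, edgeR adjusted p = 0.000144), and with LPS_ABS against LPS it was -0.11, a difference that was not called. The fall of NUP93 (-0.39 ± 0.12, edgeR adjusted p = 0.0456) was lost when any 1 of 7 libraries was left out. In all, 25% of the tested neighbours were called with LPS beside 14.9% of all genes, with a median of 0.02.

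With LPS_ABS against LPS, NUP93 (0.46 ± 0.12, edgeR adjusted p = 0.0137) and NLRC5 (0.96 ± 0.20, adjusted p = 0.00639) rose. NLRC5 is an activator of the MHC class I genes. NUDT21 and BBS2 fell as counted, and neither was called after the GC correction, under which NUDT21 turned to 0.20 while BBS2 stood at -0.41 (edgeR adjusted p = 0.0844). As counted, the call of NUDT21 was lost without LPS 1, LPS 3, LPS_ABS 2 or LPS_ABS 3. That of BBS2 was lost without control 1, control 2, LPS 2, LPS 3, LPS_ABS 2 or LPS_ABS 3. In all, 2 tested neighbours were called higher and 2 lower (50%, beside 35.6% of all genes). The median of the 8 neighbours was 0.18, opposite in sign to that of the metallothioneins. On either side of the cluster, the nearest tested neighbours were BBS2, which fell by 0.45 on the log2 scale as counted, and NUP93, which rose.

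**Figure D4:**
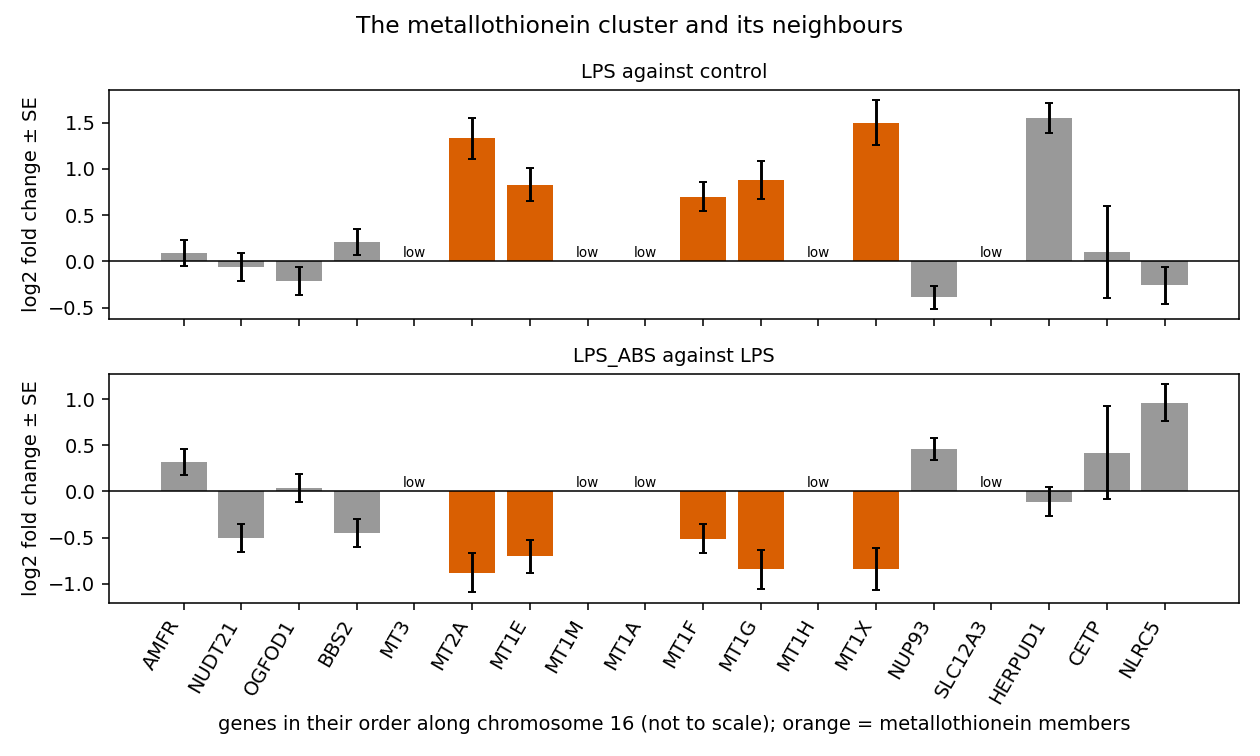
Log2 fold change ± SE from edgeR (y axis) of the metallothioneins (orange) and their 10 nearest neighbours with a row (grey), in their order along chromosome 16 (x axis, not to scale); "low" marks genes with few counts. MT3, one of the neighbours, is also a metallothionein and is marked "low". HERPUD1 is higher with LPS by 1.55, whereas the 5 metallothioneins stand between 0.70 and 1.5.

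SLC30A1 belongs to the SLC30 family, which moves zinc out of the cytosol, whereas the SLC39 family moves it in. Of 24 further zinc transporter genes, 16 were tested. With LPS, SLC39A14 and SLC39A9 rose and SLC39A4 and SLC39A8 fell, 4 of 16 (25%) beside 14.9% of all genes, with a median of -0.15. No tested member of the SLC30 family was called. SLC39A14, an importer of zinc and iron, stood at 21.4, 22.9 and 23.0 FPKM in controls, 29.8, 31.5 and 33.9 with LPS, and 31.5, 37.1 and 36.6 with LPS_ABS, so that no LPS or LPS_ABS library reached down to the controls. Its log2 fold change with LPS was 0.53 ± 0.11 (SE, edgeR adjusted p = 0.0096). In CPM, 19.9% of the genes tested also had every LPS library above every control. SLC39A8, an importer of zinc and manganese, stood at 7.88, 7.81 and 7.15 FPKM in controls and 5.4, 4.57 and 5.39 with LPS (-0.54 ± 0.16, edgeR adjusted p = 0.0347). SLC39A9 rose by 0.49 ± 0.12 (edgeR adjusted p = 0.0163) and SLC39A4 fell by 0.52 ± 0.15 (adjusted p = 0.0328) on the log2 scale.

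Each of these 4 calls depended on single libraries. That of SLC39A14 was lost without control 1 or LPS 3, that of SLC39A9 without any 1 control or LPS 3, that of SLC39A8 without any 1 control or LPS library, and that of SLC39A4 without control 1, control 2, LPS 2 or LPS 3, as well as after the GC correction, where its value was -0.46 (adjusted p = 0.0525). With the correction 7 zinc transporters were called, 3 higher and 4 lower, where 21.1% of all genes were, and SLC39A14, SLC39A9 and SLC39A8 were among them.

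With LPS_ABS against LPS, 9 of the 16 zinc transporters were called (56.2%, beside 35.6% of all genes), 3 higher and 6 lower, with a median of 0.05. SLC30A6 and SLC30A9, which load zinc into or release it from inner compartments, fell by 1.03 ± 0.20 (SE, edgeR adjusted p = 0.00542) and 0.94 ± 0.19 (adjusted p = 0.00639) on the log2 scale. SLC39A6 and SLC39A10, importers of the plasma membrane, fell by 0.79 ± 0.15 (edgeR adjusted p = 0.0057) and 0.89 ± 0.20 (adjusted p = 0.00846). After the GC correction edgeR called 0 of the 16, while 5 had an unadjusted p under 0.05, and DESeq2 without the correction called 9. The values of these 4 genes after correction were -0.36, -0.33, -0.32 and -0.21. The values of SLC30A6 and SLC30A9, like that of SLC30A1, lay nearer to 0 after the correction, whereas those of the 5 well-counted metallothioneins lay farther from it. The correction takes off a trend that rises with GC content in the LPS_ABS libraries. The direction of each shift therefore depends on the GC content of the gene, which was 38.0% for SLC30A1 and 53.5% (MT1E) to 63.0% (MT2A) for the metallothioneins.

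**Figure D5:**
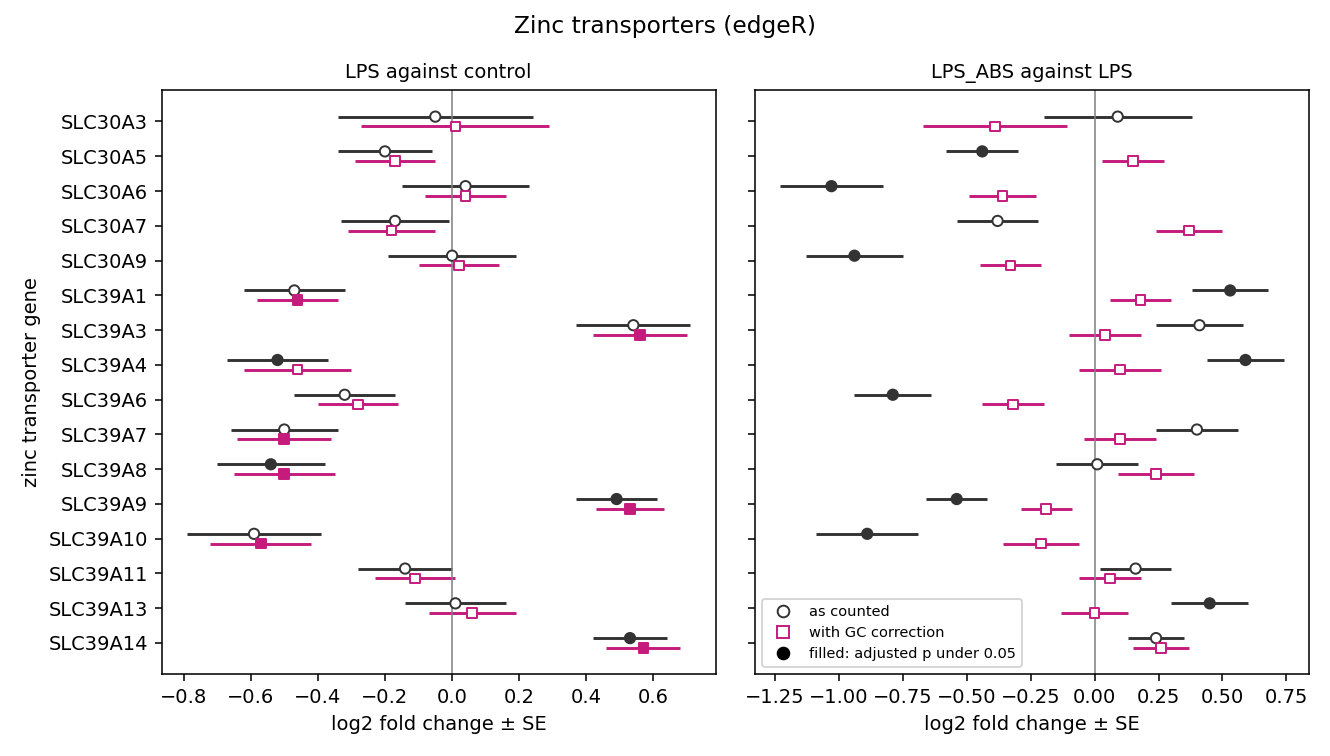
Log2 fold change ± SE from edgeR (x axis) of the 16 tested zinc transporters outside the members (y axis), as counted (circles) and with the GC correction (squares), filled where the adjusted p was under 0.05. With LPS the 2 fits lie close together, and with LPS_ABS against LPS 9 are called as counted and 0 with the correction.

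Against control, LPS_ABS called 10 of the 16 zinc transporters (62.5%, beside 33.8% of all genes), 3 higher and 7 lower. The correction left 4. These were SLC39A14 (0.77 ± 0.11 as counted, 0.83 corrected), SLC39A3 (0.95 ± 0.17, 0.59 corrected), SLC39A6 (-1.11 ± 0.15, -0.60 corrected) and SLC39A10 (-1.48 ± 0.20, -0.79 corrected). SLC39A14 had edgeR adjusted p-values of 0.00105 and 0.000464 in the 2 fits. SLC39A10 stood at 1.96, 2.02 and 1.51 FPKM in controls, 1.33, 1.21 and 1.05 with LPS, and 0.762, 0.482 and 0.547 with LPS_ABS, in 3 ranges that did not overlap. In CPM, 22.7% of the genes tested were lower without overlap with LPS against control, and 24.3% with LPS_ABS against LPS. With LPS, SLC39A10 was not called as counted (-0.59, edgeR adjusted p = 0.0665) but was after correction (-0.57, adjusted p = 0.0169). Its fall between LPS and LPS_ABS was not called after correction (-0.21, edgeR adjusted p = 0.377).

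Metallothioneins also bind copper, and 13 of 13 copper-handling genes were tested. SLC31A1, the copper importer of the plasma membrane, rose with LPS by 1.77 ± 0.16 (SE, edgeR adjusted p = 7.88e-05) on the log2 scale, beside 1.5 for MT1X. It stood at 11.6, 11.6 and 11.7 FPKM in controls, 43.5, 35.7 and 37.7 with LPS, and 28.5, 27.7 and 19.3 with LPS_ABS. The 3 groups did not overlap, and LPS_ABS 3 was again the lowest of its group. In CPM, 19.9% of the genes tested were higher without overlap with LPS against control, and 24.3% were lower with LPS_ABS against LPS. SLC31A1 was the 1 copper gene called with LPS (7.69%, beside 14.9% of all genes, median 0.00), and its GC-corrected value was 1.81. After the correction 4 of 13 were called, beside 21.1% of all genes, namely SLC31A1 and the copper chaperone gene CCS higher and SCO1 and CUTC lower. With LPS_ABS against LPS, 3 of 13 were called (23.1%, beside 35.6% of all genes), 1 higher and 2 lower. The fall of SLC31A1 (-0.52 ± 0.15, edgeR adjusted p = 0.0223) was lost without LPS 1 or LPS 3 and after the GC correction (-0.22, adjusted p = 0.36). The exporter ATP7A fell as well (-1.29 ± 0.38, edgeR adjusted p = 0.0228) and was not called after correction (-0.71, adjusted p = 0.147). Its level was low, at 0.0999 to 0.554 FPKM. SCO2, which delivers copper to cytochrome c oxidase, rose (0.50 ± 0.15, edgeR adjusted p = 0.0248) and stood at 0.03 after correction, when COX11 was the 1 copper gene called, at 0.57 (adjusted p = 0.0288). As counted, the call of ATP7A was lost without LPS 1, LPS_ABS 2 or LPS_ABS 3, and that of SCO2 without LPS 1, LPS 2 or LPS_ABS 1.

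Heavy metals and oxidants also induce genes outside the zinc system, and 14 such genes were listed and tested. With LPS, 2 rose and 1 fell (21.4%, beside 14.9% of all genes, median 0.13). SLC7A11, the cystine importer, stood at 4.42, 4.03 and 4.03 FPKM in controls, 14.4, 11.2 and 14.1 with LPS, and 14.2, 6.45 and 3.2 with LPS_ABS. It rose with LPS by 1.70 ± 0.39 (SE, edgeR adjusted p = 0.0127) on the log2 scale, a call lost without control 2 or control 3. The haem oxygenase gene HMOX1 rose by 0.85 ± 0.22 (edgeR adjusted p = 0.0225), a call lost without any 1 control or LPS 3. HSPH1, a chaperone gene, fell by 0.76 ± 0.17 (edgeR adjusted p = 0.012), a call lost without control 3. The heat shock genes HSPA1A, HSPA1B and DNAJB1 were not called, so the list did not move as 1 group.

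With LPS_ABS against LPS, 5 of the 14 fell and 0 rose (35.7%, beside 35.6% of all genes). GCLC, a subunit of the enzyme that starts glutathione synthesis, fell by 0.78 ± 0.16 (SE, edgeR adjusted p = 0.00678) and was the 1 gene of the list that was also called after the GC correction (-0.52, adjusted p = 0.0455). GCLM, TXNRD1, NQO1 and HSPH1 were no longer called, and GCLM and HSPH1 turned to 0.13 and 0.12.

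Genes known to respond to glucocorticoids, which induce MT2A, formed the last list. With LPS, TSC22D3, a glucocorticoid-induced leucine zipper gene, was the 1 of 13 tested that was called (7.69%, beside 14.9% of all genes, median 0.13). It stood at 11.5, 9.5 and 8.47 FPKM in controls, 48.0, 46.8 and 46.8 with LPS, and 39.0, 49.96 and 22.4 with LPS_ABS. Its rise was 2.29 ± 0.24 (SE, edgeR adjusted p = 0.000144). With LPS_ABS against LPS, 6 of 13 rose and 0 fell (46.2%, beside 35.6% of all genes), with a median of 0.68, or 0.30 after the GC correction. The corrected fit called 1 of 13 (7.69%, beside 9.19% of all genes), and without LPS_ABS 3 the number as counted was 4.

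The clock gene PER1 rose by 1.27 ± 0.23 (SE, edgeR adjusted p = 0.00483) and remained called after correction (0.87, adjusted p = 0.0136). The phosphatase gene DUSP1 rose by 1.02 ± 0.25 (edgeR adjusted p = 0.0105) and CEBPD by 0.69 ± 0.16 (adjusted p = 0.00939), and neither was called after correction, where DUSP1 stood at 0.72 (adjusted p = 0.0678) and CEBPD at 0.23 (adjusted p = 0.236). The rises of ZFP36, MAP3K6 and IRS2 (0.52, 0.68 and 1.42 as counted) were 0.16, 0.26 and 1.03 after correction and no longer called. As counted, the calls of MAP3K6 and IRS2 were lost without LPS 1, LPS 3, LPS_ABS 2 or LPS_ABS 3, and that of ZFP36 without LPS 1 or LPS_ABS 2. TSC22D3 was not called between LPS_ABS and LPS. The 2 most strongly raised genes of these lists with LPS, TSC22D3 and SLC31A1, stayed above control with LPS_ABS, at 2.05 ± 0.24 and 1.25 ± 0.16 (edgeR adjusted p = 0.000288 and 0.000498), beside 0.44 ± 0.21 for MT2A and 0.66 ± 0.23 for MT1X.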

How the data were processed

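Libraries were assigned to groups by their treatment label, and table columns were matched to samples by title. The authors deposited raw read counts and FPKM values per gene, both for 16222 genes. The tools named, per the submitters' processing notes, are DESeq2, HTSeq, HISAT2, fastp and R 3.2.0, without their roles. TRIzol was used to extract RNA, per the labels' protocols, which name a stranded and a further library kit for each sample. The genome build, annotation and strand setting are not given in the sources used here. Antisense and overlapping genes may therefore share reads. The deposited FPKM values equalled the counts divided by 1 length per gene and the library total, to within 1.1e-13.

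Counts were analysed with edgeR 4.0.16 (R 4.3.3). The filter filterByExpr left 12970 genes, which were scaled by TMM. All 9 libraries entered 1 quasi-likelihood fit of 3 group means, leaving 6 residual degrees of freedom, and groups were compared by its F test. The Benjamini-Hochberg adjustment ran over all genes tested, and genes with an adjusted p under 0.05 were called. The spread between libraries beyond counting error was 18.4% as a common coefficient of variation, so counting error limits mainly genes with few counts. Duplicate libraries were looked for within groups and none was found (lowest chi-square per degree of freedom 7.22). For the GC correction, log2 CPM of each library was taken as the deviation from each gene's mean over all libraries. These deviations were fitted by lowess (span 0.3) on transcript GC content, known for 99.34% of genes, and the trend entered as an offset. Alternatives were DESeq2 1.42.0, other scalings and filters, a replicate block, the 2 groups alone, and leaving out each library. LPS_ABS 3 left out together with the GC correction was added after seeing the data.

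The members and gene lists were chosen with earlier results of these data known, so calls and fold changes of members are a description and support nothing. Lists are given by counts and medians with no test of the list, and adjusted p-values belong to single genes of the lists. The text names all members, the members of each list with the smallest adjusted p in a comparison and, by Pearson correlation of log2 CPM among genes whose mean count per library was 100 or more, the 5 genes most like MT2A and SLC30A1, of which 1 is not reported here, nor is 1 list of cell type markers. HSPA1A, HSPA1B, DNAJB1, CCS, COX11, MAP3K6, IRS2 and SLC30A5 were named outside this rule, after their values were seen. Metal response elements and shared windows were searched by exact match. Promoters are from RefSeq (GRCh38.p14), transcripts from GENCODE v29.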

Additional observations from a re-analysis of the deposited data

How the results depend on the processing

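Under the alternatives run, the median of the 5 well-counted metallothioneins was higher with LPS and lower with LPS_ABS against LPS throughout. Leaving out 1 library at a time gave medians of 0.82 to 1.05, -0.97 to -0.57 and -0.01 to 0.34 for LPS against control, LPS_ABS against LPS and LPS_ABS against control. The last was -0.10 with the GC correction and -0.12 with the replicate block added to it. Metallothioneins called ranged from 3 to 6, 3 to 5 and 0 to 2 without 1 library. In LPS_ABS against control, 1 was called, and 0 with total-count scaling, the GC correction, that correction with the block, or the 2 groups alone.

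Genes called over the whole table were 1933, 4621 and 4388 in the 3 comparisons. Without 1 library they were 873 to 2710, 2360 to 4918 and 2351 to 4793. The 2 groups alone gave 3245 with LPS and 3042 for LPS_ABS against LPS. The GC correction gave 1192 and 1686 in the comparisons with LPS_ABS, and 1411 and 1759 with the block. With LPS_ABS 3 also left out, the corrected fits called 3617, 728 and 2614. Zinc transporters called with LPS were 4, and 7 with DESeq2 size factors or the GC correction, 8 with total counts, the DESeq2 test, the correction with the block or the correction without LPS_ABS 3, 9 with the 2 groups alone, and 0 to 8 without 1 library. In LPS_ABS against LPS the correction gave 0 in place of 9, with and without the block or LPS_ABS 3. In LPS_ABS against control it gave 4 in place of 10, and 5 without LPS_ABS 3. The cause of these shifts was not tested.

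With the GC correction, values that changed sign in LPS_ABS against LPS included those of GCLM (0.13, 0.13 with the block, 0.14 without LPS_ABS 3), HSPH1 (0.12, 0.09 with the block, but -0.15 without LPS_ABS 3) and NUDT21 (0.20, 0.20 and 0.19), which were called as counted. SLC30A5, also called as counted, turned to 0.15, 0.14 with the block and 0.03 without LPS_ABS 3, and SLC30A1, which was not called, to 0.08. Against control NUDT21 turned to 0.14, 0.14 and 0.13. The cause was not tested.

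Deviations of same-numbered libraries from their group means correlated at -0.035 to 0.203 over 9 pairs. Those of different-numbered libraries correlated at -0.204 to 0.172. With 3 libraries in each group, this check cannot exclude a pairing by replicate number. A replicate block alone called 1960, 4838 and 4573 genes. At this depth MT1A, MT1H and MT1M are limited by counting error.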
